A study of Arapaima gigas with 24 samples.

Results

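Whole-transcriptome profiles of male and female brain were compared in Arapaima gigas (pirarucu, an air-breathing fish of South American rivers). The samples are the 12 brain libraries of a series of 24, taken by their tissue label. They came from 6 fish, 3 females and 3 males, each with 2 libraries. Their titles carry different prefixes that the labels leave unexplained, and they are called run 1 and run 2 here only as names. A result that holds in both is one seen in 2 libraries of the same fish, not in separate fish. The counts of the 2 runs of a fish were added, which gave 6 brain samples. The remaining 12 libraries are gonads of the same fish.

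All fish were farmed and unmanipulated as far as the labels tell, at least 4 years old and 100 to 120 cm long, and were taken in the reproductive season. Sex was recorded from gonad contents. The labels give neither strain nor genotype nor the brain region, and name no treatment. The table holds 22016 gene models as whole-number read counts, mapped by the authors to the genome of another fish, the Asian arowana. Its identifiers are not paired with gene names in the sources used here. No known gene, pathway or brain cell type could therefore be looked up, and the brain label could not be checked against markers.

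In teleost fish the brain controls reproduction through gonadotropin-releasing hormone neurons and the pituitary, and gonadal steroids act back on it. Radial glial cells of the adult fish brain make aromatase, which converts androgen to estrogen locally. Which gene models carry these functions is not known here.

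Totals ran from 5689872 counts in female 3 to 13142667 in female 1, with 10250653 to 10716132 in the other 4. The median count of a gene model was 135 in female 3 and 221 to 335 in the others, a counting error of 8.61% and 5.46% to 6.73%. The 2 runs of a fish differed by a median of 0.129 to 0.189 on the log2 CPM scale. Levels are given as CPM, counts relative to the library total after TMM scaling, which aligns the bulk of the gene models between samples. They are not corrected for gene length.

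No gene model passed the test between male and female brain. The edgeR quasi-likelihood test called 0 of 22015 gene models at an adjusted p under 0.05 (0%), and the smallest adjusted p was 0.130. At an unadjusted p under 0.05, 1572 gene models were higher in males (7.14%) and 2440 were lower (11.1%). Each share alone was above the 0.05 that uniform p values would give over both directions together. No test of this excess was made. DESeq2 called 96 higher (0.57%) and 1262 lower (7.49%) of 16851 with a defined adjusted p. limma-voom called 4, all lower in males (0.0182%), and all 4 were among the DESeq2 calls. The answer to which gene models differ thus depended on the test.

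Whether the sex difference of a gene model was the same in brain and gonad was tested as an interaction of sex and tissue over all 12 samples. It was called by edgeR for 0 of the 22015 gene models and by DESeq2 for 2. The lowest adjusted p in edgeR was 0.9998. In edgeR 571 of the 22015 had an unadjusted p under 0.05, a smaller share than the 0.05 that uniform p values would give. Without female 1 edgeR called it for 7. These fits did not pair the brain and gonad of a fish. With the fish as a block edgeR called the interaction for 0. The brain differences described here are therefore not called particular to brain. Nor do 0 calls show that the sex difference is the same in both tissues. With all 12 samples in one edgeR fit, the brain comparison itself had 2160 gene models at an unadjusted p under 0.05. The fit of the brain samples alone had 4012.

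Most differences between male and female brain were small. The middle of the log2 fold changes, from the lower to the upper quartile, ran from -0.15 to 0.13. In limma-voom the 95% interval of the log2 fold change lay wholly inside a 2-fold difference either way for 20641 of 22015 gene models (93.8%). It lay inside 1.5-fold for 16711 (75.9%). The median interval reached 0.26 to either side of the estimate. For the remaining 1374 gene models the interval held a 2-fold difference or lay wholly beyond it.

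The large differences lay mostly on the female side. The fitted edgeR fold change was at least 2-fold lower in males for 323 gene models and at least 2-fold higher for 16. The 1st and 99th percentiles of log2 fold change were -1.15 and 0.49. The extremes were -5.41 and 3.11. These counts are of fitted values and carry no test. The counts in limma-voom were 223 at least 2-fold lower and 2 at least 2-fold higher. Scaling by total counts alone gave 141 lower and 50 higher, since it moved the median over the whole table from 0.01 to 0.31 on the log2 scale. Counted from that median, total counts gave 303 lower and 18 higher.

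**Figure D1:**
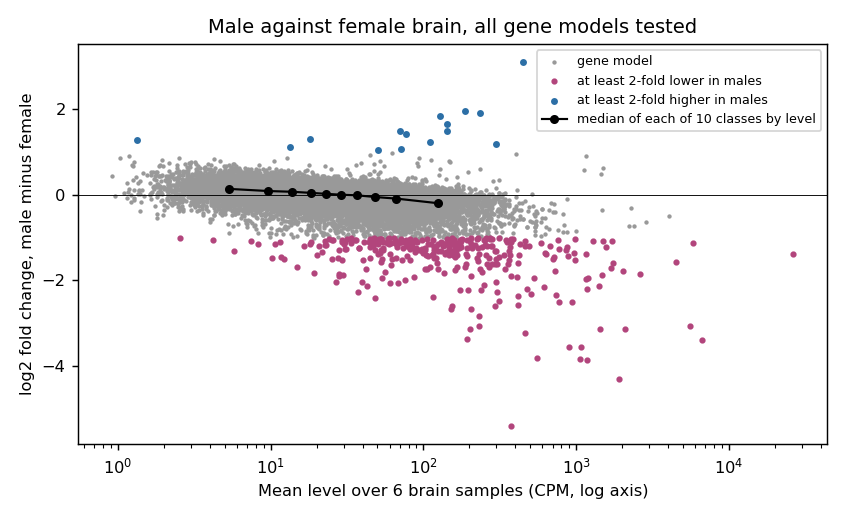
Log2 fold change of male minus female brain (y axis) against mean level in CPM (x axis, log) for the 22015 gene models tested. Coloured points are the 323 fitted at least 2-fold lower and the 16 at least 2-fold higher in males. The black line joins the medians of 10 classes by level and goes down from 0.14 to -0.19.

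The 16 gene models on the male side rested mostly on single fish. In 0 of the 16 were all males above all females, against 12.8% of all gene models tested. In 15 of them 1 male was at least 2-fold above every other brain: male 3 in 10, male 2 in 4 and male 1 in 1. Over all 22015 gene models tested, male 3 stood so in 29, male 2 in 19 and male 1 in 9. The 16 were chosen by high fitted values in males, which a single high male can give.

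The 323 on the female side were more mixed. In 187 of them all 3 females were above all 3 males, and in 153 this held in run 1 and in run 2 each. Over all gene models tested these shares were 13.6% and 6.65%. The 323 were chosen by low values in males, so nothing is read from the higher counts. In 150 of the 323 a single female was at least 2-fold above every other brain. That female was female 2 in 107, female 3 in 25 and female 1 in 18. Over all 22015 gene models tested, female 2 stood so in 273, female 3 in 45 and female 1 in 29. Males 1, 2 and 3 did in 9, 19 and 29. The median deviation from the mean of the 6 brains, on the log2 CPM scale, was 1.18 in female 2 and 0.60 in female 3. It was -0.18 in female 1, and -0.59, -0.61 and -0.51 in males 1, 2 and 3. By these medians female 1 lay nearer to the males than to the other females. The 323 were chosen on the values of these same brains, so nothing is read from that order.

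Leaving out female 2 lowered the count to 177 lower in males, with 29 higher, and leaving out female 1 raised it to 494. The count lower in males exceeded that higher in males without each of the 6 fish.

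**Figure D2:**
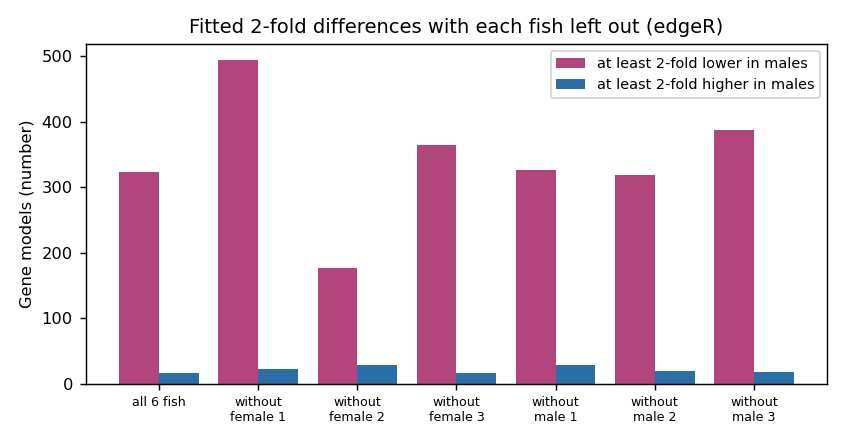
Number of gene models (y axis, from 0) with a fitted edgeR fold change of at least 2 in either direction, with all 6 fish and with each fish left out (x axis). The bar for lower in males is highest without female 1, at 494, and lowest without female 2, at 177. The bars for higher in males stay at 29 or below.

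In 5 gene models every female was at least 2-fold above every male, and 0 showed the reverse. They were singled out after their values were seen. One, of high level, had 1325, 1140 and 1163 CPM in females 1, 2 and 3 and 476, 489 and 521 CPM in males 1, 2 and 3. Its log2 fold change was -1.29 (edgeR adjusted p = 0.142, limma-voom adjusted p = 0.0480). Its 95% interval in limma-voom had its far end at -1.54 and its near end at the 2-fold mark. A second, of lower level, had 81.1, 83.6 and 114 CPM in the females and 22.6, 31.8 and 34.3 CPM in the males. Its log2 fold change was -1.65 (edgeR adjusted p = 0.130, limma-voom adjusted p = 0.0786).

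In the other 3 the log2 fold changes were -1.94, -1.43 and -1.61, at edgeR adjusted p values of 0.142, 0.130 and 0.130. All 5 were apart in run 1 and in run 2, and all 5 were called by DESeq2. They were chosen by these same values, so nothing is read from that. The interval lay wholly beyond a 2-fold difference for 16 gene models, all lower in males and these 5 among them.

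Separation of the sexes was counted without a model of the spread. In 2807 gene models all 3 males were above all 3 females (12.8%), and in 2985 all 3 were below (13.6%). Required in run 1 and in run 2 each, the counts were 688 higher (3.13%) and 1463 lower (6.65%). The split depended on scaling: upper-quartile scaling gave 5235 higher and 1661 lower, and total counts alone gave 10839 and 424. At an unadjusted p under 0.05 the same scalings gave 3513 higher with 1456 lower, and 8828 with 480. Of the 1358 DESeq2 calls, 1309 had the sexes apart and 1080 had them apart in both runs. Over all 22015 gene models tested these counts were 5792 and 2151. The calls were made on the same samples, so nothing is read from the overlap.

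The female-side lean followed the level of the gene model. Gene models were cut into 10 classes of equal size by mean level. In the lowest class, with a median of 5.30 CPM, the median log2 fold change was 0.14, and 385 gene models had all males above all females against 51 below. In the highest class, with a median of 124 CPM, it was -0.19, with 95 above and 866 below. Both classes held 2202 gene models. Over all gene models tested, 12.8% had all males above and 13.6% all males below. Nothing is read from the counts within the classes, given how they were cut. The median log2 fold changes went down step by step through the classes between them. DESeq2 gave a defined adjusted p to 0 gene models of the lowest class and to 2178 of the highest. It called 478 of the latter, all lower in males, where over all gene models with a defined adjusted p it called 7.49% lower. With total counts alone the median of the highest was 0.11. Relative to all gene models it was then -0.19, where TMM gave -0.20. With TMM and 1 fish left out, this relative median ran from -0.13 without female 2 to -0.23 without female 1.

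**Figure D3:**
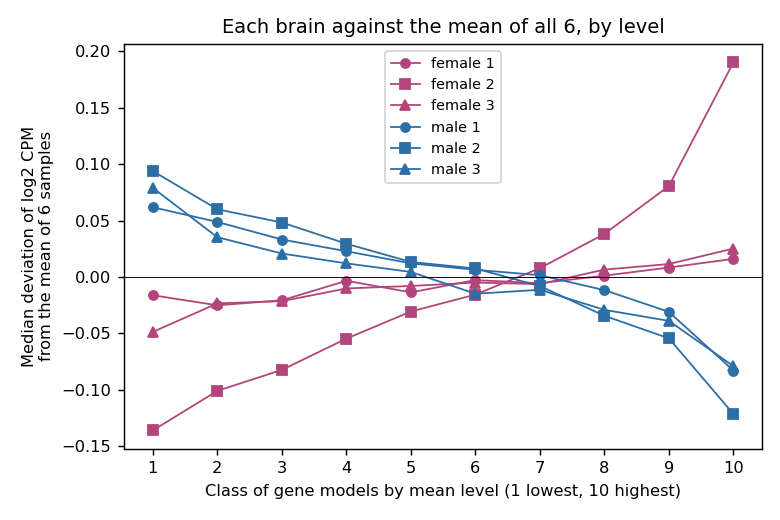
Median deviation of log2 CPM of each brain from the mean of all 6 (y axis) in 10 classes of gene models by mean level (x axis, 1 lowest and 10 highest). Female 2 runs from -0.14 to 0.19, females 1 and 3 stay within 0.05 of 0, and the 3 males run down from 0.06 to 0.09 in the lowest to -0.08 to -0.12 in the highest.

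Female 2 had the steepest trend. Its median deviation from the mean of the 6 brains went from -0.14 in the lowest class to 0.19 in the highest. Males 1, 2 and 3 went the other way, from 0.06, 0.09 and 0.08 to -0.08, -0.12 and -0.08. Females 1 and 3 lay between, at 0.02 and 0.03 in the highest. Female 2 was the highest brain in 1152 of the 2202 gene models of the highest class (52.3%), and in 25.4% of all gene models tested. It was the lowest brain in 5894 of all gene models (26.8%). The classes were cut by mean level over these same brains, so a high value in a single brain helps a gene model into the highest class. Nothing is therefore read from the share in that class. How far this shaped the trends of single brains, or the fall of the medians with level, was not tested.

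Counts in female brains were held by fewer gene models. It took 2828, 1659 and 2338 gene models to reach 50% of counts in females 1, 2 and 3. In males 1, 2 and 3 it took 3563, 3657 and 3266. The sexes did not overlap, at 2275 ± 587 against 3495 ± 204 gene models (SD, n = 3 each, exact permutation p = 0.1, the smallest possible). Run 1 gave 2416 ± 451 in females and 3573 ± 232 in males, and run 2 gave 2119 ± 708 and 3393 ± 179. The 10 most abundant gene models of each fish held 6.29%, 10.3% and 10.7% of counts in the females and 4.35%, 3.01% and 5.75% in the males. The single most abundant one held 2.21%, 4.32% and 3.50% in the females and 1.40%, 0.696% and 2.72% in the males, where the sexes overlapped (exact permutation p = 0.2).

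A fixed set of the 220 gene models with the highest mean CPM (1%) held 17.9%, 26.7% and 22.4% of counts in females 1, 2 and 3. It held 12.8%, 11.6% and 14.9% in males 1, 2 and 3. Of the 220, 203 had a fitted value lower in males. In 122 of them (55.5%) all females were above all males, against 13.6% of all gene models tested, and in 0 the reverse, against 12.8%. Female 2 was the highest brain in 140 of the 220, and in 25.4% of all gene models tested. The 220 were ranked by mean CPM over these same brains, so a high value in a single brain helps a gene model in. Nothing is therefore read from the counts within the 220. In bulk tissue, fewer cells of a type and less RNA per cell cannot be told apart.

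**Figure D4:**
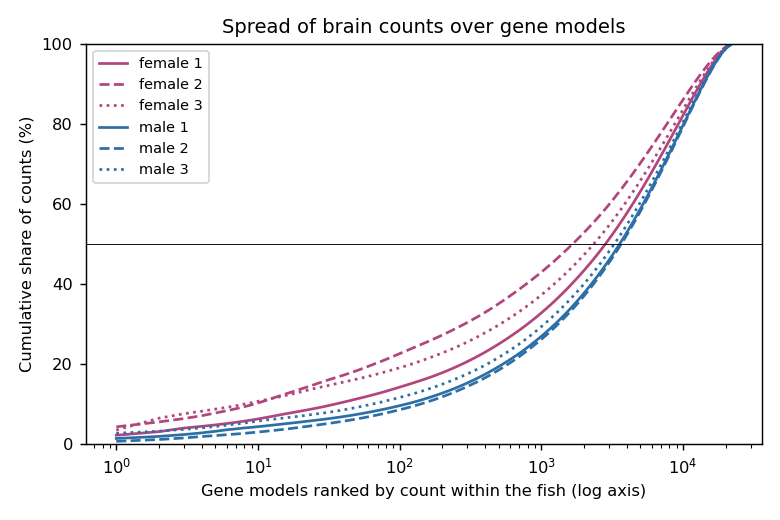
Cumulative share of counts in percent (y axis) over the gene models of each brain ranked by count (x axis, log). The 3 female curves lie above the 3 male curves at 100 gene models, with 14.2% to 22.6% against 8.59% to 11.7%. They cross 50% at 1659 to 2828 gene models against 3266 to 3657.

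Females also differed more among themselves, most in the pairs with female 2. The median SD of log2 CPM between fish was 0.143 in females and 0.0994 in males, and the female SD was the larger in 67.0% of gene models. For females 1 and 3 alone the median SD was 0.102. It is over 2 fish, so it compares only loosely with the values over 3. The common biological coefficient of variation, the spread beyond counting error, was 0.181 in females and 0.122 in males. After all samples were thinned to the total count of female 3, the median SD was 0.158 in females and 0.120 in males. Thinning did not equalise the median count of a gene model, which was then 117 to 145 in females and 156 to 165 in males. Of the 3 female pairs, females 1 and 3 had the lowest coefficient, at 0.139, and the pairs with female 2 had 0.194 and 0.185. The male pairs had 0.102 to 0.125. With 1 value per sex no test of this difference was made.

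Similarity between single brains did not follow sex alone. The median absolute difference of log2 CPM was 0.104 to 0.122 between males and 0.144 to 0.177 between females. Between sexes it ran from 0.127, for female 1 and male 1, to 0.233, for female 2 and male 2. Female 1 was thus nearer to male 1 than to either other female, where the differences were 0.144 for female 3 and 0.172 for female 2. From males 2 and 3 it differed by 0.151 and 0.154, more than from female 3. For scale, the 2 runs of a single fish, each with fewer counts than the added sample, differed by a median of 0.129 to 0.189. How far counting error bears on the order of the pairs was not tested. Female 3 had the lowest total count, and whether this bears on its differences was not tested. On the first principal component, with 47.5% of the variance, female 2 stood at 48.3 and the males at -14.8 to -22.4. Females 1 and 3 lay between them at -3.10 and 10.4.

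Counts of calls moved when single fish were left out. Without female 1 the edgeR test called 575, of which 555 were lower and 20 higher in males. Of these, 469 were among the 1358 DESeq2 calls made with all fish, which is 81.6% of the former and 34.5% of the latter. Without female 2 DESeq2 called 383, 1 higher and 382 lower, of which 359 were among the 1358. Without males 1, 2 and 3 it called 567, 605 and 792. DESeq2 left 15367 adjusted p values undefined without female 2 and 13237 to 13664 without a male, where all fish gave 5165. Whether this bears on the lower counts of calls was not tested. Without male 2 the edgeR count at an unadjusted p under 0.05 was 2464, where all fish gave 4012. What sets females 1 and 2 apart was not tested.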

How the data were processed

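Poly(A) RNA libraries were read as 50 nt reads on a SOLiD 4 sequencer, per the labels' protocols, from RNA with integrity numbers of 8 to 8.5. The deposited values are read counts per gene model and library, not normalized. The authors mapped reads to the Scleropages formosus genome, per the series design text, and Bowtie is named in the submitters' processing notes. Counting tool, build, annotation, use of strand and treatment of multiply mapped reads: not given in the sources used here. Sequence differences between the species lower or misplace counts, so samples compare more safely than gene models, and near-identical or overlapping gene models are uncertain.

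The 2 runs of a fish were added, since they are not separate fish. Tests across all gene models used edgeR 4.0.16 (quasi-likelihood, TMM, default filter with minimum count 10 and total 15) in R 4.3.3 on the 6 brain samples, with Benjamini-Hochberg adjustment. Alternatives were DESeq2 1.42.0, where 5165 adjusted p-values were undefined, and limma-voom 3.58.1, which also gave the intervals. Log2 CPM used a prior count of 2. Scripts were tested on simulated data. Gene models were to be named by the smallest edgeR p in each direction, 2 each, among those apart in both runs; they are not reported here. Comparisons, rules and lists were chosen with earlier results of these data known. Gene lists drawn up for sex steroids, hormones and cell types could not be matched to identifiers and were not run.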

Additional observations from a re-analysis of the deposited data

How the results depend on the processing

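In edgeR the count of 0 calls held under RLE, upper-quartile and total-count scaling, both other filters, each run alone, all 12 samples in one fit, a robust dispersion and thinning. At an adjusted p under 0.1 the count was 0 with the settings of the report, 7561 with total counts alone, 55 with a robust dispersion and 0 to 1289 without 1 fish, the highest without female 1. DESeq2 called 1358 and limma-voom 4, and leaving out 1 fish gave 0 to 575, the highest without female 1. At an unadjusted p under 0.05 there were 9308 with total counts alone and 2160 with all 12 samples, and 2464 to 4727 without 1 fish. With all 12 samples 1114 were higher and 1046 lower in males, where the settings of the report gave 1572 and 2440. Gene models apart numbered 11263 with total counts alone.

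The count fitted 2-fold lower in males was 141 with total counts alone, 223 in limma-voom, 226 with a replicate block and 177 to 494 without 1 fish. The count 2-fold higher was 50 with total counts alone, 2 in limma-voom, 1 with a replicate block and 16 to 29 without 1 fish. DESeq2 calls numbered 533 in run 1, 785 in run 2, 576 after thinning, 713 with a replicate block and 383 to 1160 without 1 fish. For the interaction DESeq2 called 2, and edgeR 0 to 7 without 1 fish. The cause of these shifts was not tested.

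Females and males share only a number: deviations of same-numbered brains correlated at 0.04, -0.14 and -0.14. The replicate block left 0 edgeR calls, and 3064 gene models had an unadjusted p under 0.05. Intervals inside 2-fold stayed within 19593 to 21008 gene models. Thinning, the refits of DESeq2 and the alternatives for 2-fold counts and for the highest class by level were chosen after the data were seen. Low depth in female 3 and 3 fish per sex limit precision.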
